A study of Mus musculus with 125 samples.

Results

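Lines A and B are sister lines of B-cell acute lymphoblastic leukaemia (B-ALL) from mouse, and their chromatin accessibility was compared in cells grown without natural killer (NK) cells. The comparison took the B-ALL alone libraries of both lines from EXP_9.5, EXP_9.6 and EXP_9.7, chosen by their labels. These were 18 of the 125 libraries in the series, 9 of line A and 9 of line B, with 3 libraries of each line in each experiment. Bone marrow of wild-type C57BL/6 mice had been transformed with a retrovirus that carries the BCR/ABLp185 oncogene, and both lines were derived from 1 such parental line. Each was then transduced with a lentiviral library of DNA barcodes and GFP and enriched for GFP+ cells, so that a line is a pool of barcoded clones and not an independent leukaemia. All cultures received 2500 U/ml of recombinant human IL-2, also those without NK cells. Leukaemia cells were sorted as GFP+ before the assay, on day 4 in EXP_9.5 and EXP_9.6 and on day 6 in EXP_9.7.

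In ATAC-seq the transposase Tn5 inserts sequencing adapters where DNA is not covered by nucleosomes, so read pairs pile up over open promoters and enhancers. BCR/ABLp185 is a constitutively active tyrosine kinase that holds B-cell precursors in a proliferating state, and such cells keep the promoters of B-lineage genes open. Lines A and B share an origin in 1 parental line. The comparison asks where the 2 pools differ before they meet NK cells. A read-pair count also depends on the number of DNA copies, so a difference in copy number and a difference in accessibility cannot be told apart here.

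The following 300-base sequences belong to the regions on which the results turn, each given on the strand of its gene or, for the last 2, on the plus strand of GRCm38. Capitals mark CG dinucleotides. The first 4 are RefSeq promoter windows (GRCm38.p6) of 4 genes among the 12 named promoters in either direction, and the last 2 are the centres of the peaks nearest to Efemp1 and Nespas.
Cdc42ep4 promoter: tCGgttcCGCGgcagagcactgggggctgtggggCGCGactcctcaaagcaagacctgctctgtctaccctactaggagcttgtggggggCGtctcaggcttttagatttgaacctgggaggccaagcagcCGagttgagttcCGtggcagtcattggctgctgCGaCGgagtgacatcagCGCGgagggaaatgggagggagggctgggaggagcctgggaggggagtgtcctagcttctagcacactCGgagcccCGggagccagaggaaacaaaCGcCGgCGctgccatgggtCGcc
Cd300c promoter: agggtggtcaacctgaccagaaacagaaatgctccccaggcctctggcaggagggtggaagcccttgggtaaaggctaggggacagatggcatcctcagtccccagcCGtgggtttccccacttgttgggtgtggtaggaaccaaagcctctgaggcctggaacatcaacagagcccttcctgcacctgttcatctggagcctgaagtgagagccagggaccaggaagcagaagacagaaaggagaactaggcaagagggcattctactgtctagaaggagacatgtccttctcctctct
Mctp2 promoter: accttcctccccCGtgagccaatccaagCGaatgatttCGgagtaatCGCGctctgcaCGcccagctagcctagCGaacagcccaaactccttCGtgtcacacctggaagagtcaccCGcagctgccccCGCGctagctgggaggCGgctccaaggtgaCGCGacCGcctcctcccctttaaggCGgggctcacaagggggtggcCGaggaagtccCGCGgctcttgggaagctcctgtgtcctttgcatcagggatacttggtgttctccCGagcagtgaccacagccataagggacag
Zfp931 promoter: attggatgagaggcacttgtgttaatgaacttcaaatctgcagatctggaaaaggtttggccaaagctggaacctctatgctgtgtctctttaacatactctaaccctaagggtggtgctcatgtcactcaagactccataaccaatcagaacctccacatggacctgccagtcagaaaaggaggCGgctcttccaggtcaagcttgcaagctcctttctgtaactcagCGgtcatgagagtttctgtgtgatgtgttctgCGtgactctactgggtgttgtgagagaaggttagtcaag
Peak nearest to Efemp1: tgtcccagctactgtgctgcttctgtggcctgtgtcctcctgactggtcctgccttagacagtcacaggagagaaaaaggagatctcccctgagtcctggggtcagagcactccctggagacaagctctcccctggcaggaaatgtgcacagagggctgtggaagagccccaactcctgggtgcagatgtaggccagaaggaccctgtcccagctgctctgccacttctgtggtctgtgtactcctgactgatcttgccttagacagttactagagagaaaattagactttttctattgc
Nespas peak: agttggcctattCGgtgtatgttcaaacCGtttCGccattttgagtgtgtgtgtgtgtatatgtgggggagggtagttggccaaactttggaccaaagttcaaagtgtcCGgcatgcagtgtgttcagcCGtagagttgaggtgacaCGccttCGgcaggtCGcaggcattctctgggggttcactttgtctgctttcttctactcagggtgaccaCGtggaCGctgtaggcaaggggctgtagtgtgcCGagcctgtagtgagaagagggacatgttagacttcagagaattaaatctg
The Cdc42ep4 and Mctp2 windows held 18 and 20 CG dinucleotides, against 1 in Cd300c, 3 in Zfp931, 0 in the peak nearest to Efemp1 and 11 in the Nespas peak. The median over 32851 RefSeq promoter windows was 7. The Cdc42ep4 window lies at chr11:113751766-113752065 (minus strand), Cd300c at chr11:114960458-114960757 (minus), Mctp2 at chr7:72306546-72306845 (minus), Zfp931 at chr2:178078376-178078675 (minus), the Efemp1 peak centre at chr11:28934708-28935007 and the Nespas peak centre at chr2:174295599-174295898.

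Between 4151525 and 8944037 read pairs were counted in consensus peaks per library, with medians of 6877833 in line A and 7286700 in line B. Each library had 35560 to 50283 broad peaks of its own. The labelled cell type showed in the promoters of B-ALL markers. Of 12 such markers 10 had a tested promoter peak (Vpreb1 and Rag1 had none), and no peak of the 10 was called. The promoter of Pax5, the factor that commits cells to the B lineage, had 45.9, 69.7 and 90.4 CPM (read pairs scaled to the size of the library) as lowest, median and highest library of line A, and in line B 43.4, 65.4 and 90.3 CPM. The first replicates of EXP_9.7 stood apart from the other replicates in both lines, with a chi-square over degrees of freedom of 4.84 to 7.76 against 1.93 to 2.18 between replicates 2 and 3. Without these 2 libraries 205 peaks were higher and 279 lower in A, and the counts and medians by experiment are also given without them.

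Most accessible regions did not pass the test between the lines, and those that did were mainly weak, distal peaks. Of 38801 tested consensus peaks, 427 differed (1.10%), with 184 higher in A (0.474%) and 243 lower in A (0.626%). A call required that the p of edgeR's quasi-likelihood test, adjusted after Benjamini and Hochberg, was at most 0.05 and that the log2 fold change of A over B was at least 0.58 in size. Peaks were tested where every replicate of at least 1 line in 1 experiment had a broad peak. Some therefore entered the test only through the line where they were higher. The median log2 fold change was 0.72 in the higher and −0.73 in the lower peaks, and 0.00 over all tested peaks. Only 18 of the higher and 40 of the lower peaks reached an absolute log2 fold change of 1, and the extremes were 1.48 and −2.0. The CPM of the 9 libraries of A did not overlap those of the 9 libraries of B in 31 higher and 40 lower peaks, together 71 of the 427, against 91 of all tested peaks (0.235%). Called peaks were low, with a median of 8.03 CPM in the higher and 6.05 CPM in the lower peaks against 16.0 CPM over all tested peaks. Leaving out EXP_9.5 left 28 higher and 54 lower peaks, so that the number of calls depended on that experiment. Without the fold threshold 601 peaks were higher and 697 lower in A.

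**Figure D1:**
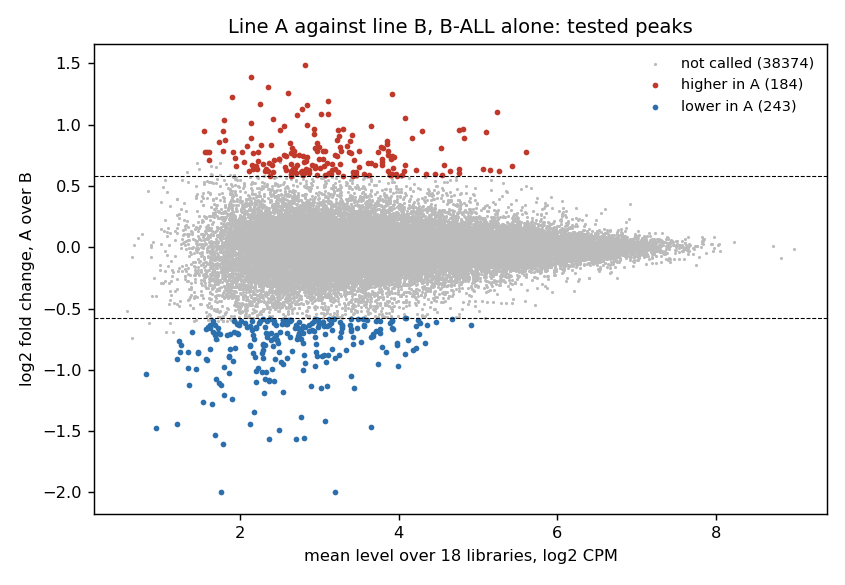
Log2 fold change of line A over line B (vertical axis) against the mean level over the 18 libraries in log2 CPM (horizontal axis), with 1 point for each of 38801 tested peaks and dashed lines at the fold threshold of 0.58. The 184 peaks higher in A (red) reach 1.48 and the 243 lower in A (blue) reach −2.0, and most of either lie in the lower part of the range of levels.

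Among 13981 tested promoter peaks, those centred within 3 kb of a transcription start site (TSS), 52 were higher in A (0.372%) and 34 lower in A (0.243%). The higher promoters belonged to genes of varied function, with signalling and cytoskeletal regulators, receptors and enzymes among them. Cd300c, an immunoglobulin-like receptor of myeloid cells, led the protein-coding promoters, with 3.21, 7.25 and 15.4 CPM (lowest, median and highest library) in A against 2.32, 3.97 and 4.40 CPM in B. Its log2 fold change was 1.26 (SE 0.19, edgeR adjusted p = 8.28e-05), and the lines overlapped in their lower A libraries. At the promoter of Cdc42ep4, which encodes an effector of the GTPase Cdc42, line A had 18.5, 24.5 and 31.2 CPM and line B 9.51, 13.2 and 17.9 CPM. All A libraries lay above all B libraries there, with a log2 fold change of 0.95 (SE 0.10, edgeR adjusted p = 6.30e-07). Zfp827, a zinc finger gene, was another of the 12 named promoters, with 28.3, 35.5 and 41.4 CPM in A against 8.96, 19 and 32.0 CPM in B. Its log2 fold change was 0.96 (SE 0.13, edgeR adjusted p = 1.89e-05), and the highest B libraries, from EXP_9.6, reached into the range of A. Smad9, a receptor-regulated Smad of the bone morphogenetic protein pathway, had 12.5, 13.6 and 18.7 CPM in A and 4.23, 8.85 and 11.3 CPM in B. This promoter again separated the lines without overlap, at a log2 fold change of 0.79 (SE 0.12, edgeR adjusted p = 8.84e-05).

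Several further promoters were also higher in A. Pcdhac1, a protocadherin of the alpha cluster, had a log2 fold change of 0.89, Svip, an inhibitor of endoplasmic reticulum-associated degradation, 0.85, and Ocrl, the inositol phosphatase mutated in Lowe syndrome, 0.81. Tmem196 (0.95), Cfap46 (0.81), Nenf (0.81), Fam129a (0.79) and Nexmif (0.78) completed the 12 protein-coding promoters with the largest log2 fold change. The CPM of the lines overlapped in each of these 5, and also in Pcdhac1, Svip and Ocrl. Nexmif, on the X chromosome, was the only tested or untested consensus peak with a broad peak in all 9 libraries of A and in none of B. Its CPM nevertheless overlapped, at 3.52, 5.97 and 9.86 in A against 1.16, 3.29 and 5.30 in B, so the absence of a broad peak in B was not an absence of reads. Sirpa, the receptor for CD47 on phagocytes, had 2 promoter peaks called (log2 fold changes 0.75 and 0.74), as did Gcnt1, the enzyme that branches core 2 O-glycans (0.68 and 0.60), and Vav3, a guanine nucleotide exchange factor (0.66 and 0.62). Ephb4, a receptor tyrosine kinase for ephrin-B2 (0.67), Porcn, which acylates Wnt proteins (0.67), Prkcz, an atypical protein kinase C (0.66), the receptor tyrosine kinase Erbb2 (0.63), the pore-forming gasdermin Gsdme (0.59) and Il1rn, the interleukin-1 receptor antagonist (0.58), were also called. These last genes were chosen after their values were seen.

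Promoters lower in A were fewer, and they showed larger fold changes at their head. Mctp2 and Mctp1 encode the 2 proteins of a family with multiple C2 domains and transmembrane segments, and both promoters were lower in A. At Mctp2 line A had 2.73, 3.97 and 6.88 CPM against 8.39, 11 and 18.4 CPM in line B, with a log2 fold change of −1.41 (SE 0.17, edgeR adjusted p = 3.08e-06). At Mctp1 the values were 4.97, 5.42 and 6.72 CPM in A and 8.39, 9.87 and 14.1 CPM in B, with a log2 fold change of −0.89 (SE 0.11, edgeR adjusted p = 1.22e-05). In neither gene did a library of A reach the lowest library of B. Zfp931, another zinc finger gene, had 1.53, 2.17 and 2.79 CPM in A and 3.59, 5.29 and 7.47 CPM in B, also without overlap (log2 fold change −1.24, SE 0.15, edgeR adjusted p = 3.95e-06). A second gene of that name series on the same chromosome, Zfp970, was lower in A as well (−0.80), and reads between such closely related copies may be split, so both values are uncertain. Snx27, a sorting nexin that returns receptors from endosomes to the cell surface, had the highest median level among the 12 named lower promoters, with 6.62, 9.51 and 10.2 CPM in A against 13.6, 17.4 and 22 CPM in B. This peak was centred in an intron 2752 bases from the TSS and did not reach it. Its log2 fold change was −0.95 (SE 0.10, edgeR adjusted p = 6.30e-07), and the lines did not overlap.

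Among the other lower promoters, Btbd8 also separated the lines without overlap, with 4.43, 4.91 and 6.39 CPM in A and 6.59, 9.96 and 12.2 CPM in B (log2 fold change −0.97, SE 0.13, edgeR adjusted p = 1.48e-05). Clec4a3, a C-type lectin receptor of myeloid cells, had 2.71, 4.33 and 7.62 CPM in A against 6.97, 10.5 and 11.8 CPM in B, a log2 fold change of −1.13 with overlap between the top of A and the bottom of B. Stpg2 (−1.35), Lsm6, a subunit of the U6 snRNA-binding Lsm ring (−1.07), the cation channel Trpc6 (−0.99) and the olfactory receptor gene Olfr272 (−0.90) were lower in A with overlapping libraries. The Lsm6 and Olfr272 peaks were centred 2668 and 1587 bases from the TSS and did not reach it. Klrb1, a lectin-like receptor gene of the NK gene complex, was called at −1.08 on low counts, with 0.935, 1.99 and 2.72 CPM in A and 0.839, 3.06 and 8.63 CPM in B. The 3 libraries of B in EXP_9.5 were the highest of all 18, while the lowest of all was also one of line B, and the broad peak was present in 0 libraries of A and 3 of B. The Klrb1 peak thus entered the test only through line B. Rbp2, a cellular retinol-binding protein known from the intestine, had 1.75, 8.18 and 11 CPM in A against 9.69, 12.4 and 14.1 CPM in B (log2 fold change −0.88, SE 0.18, edgeR adjusted p = 0.00332), and its lowest libraries of A were those of EXP_9.5. Irf8, a transcription factor of B cells and myeloid cells, had a called peak 2025 bases from its TSS (−0.65), while its peak nearest to the TSS did not differ beyond the spread of the libraries (log2 fold change 0.00, edgeR adjusted p = 0.993).

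**Figure D2:**
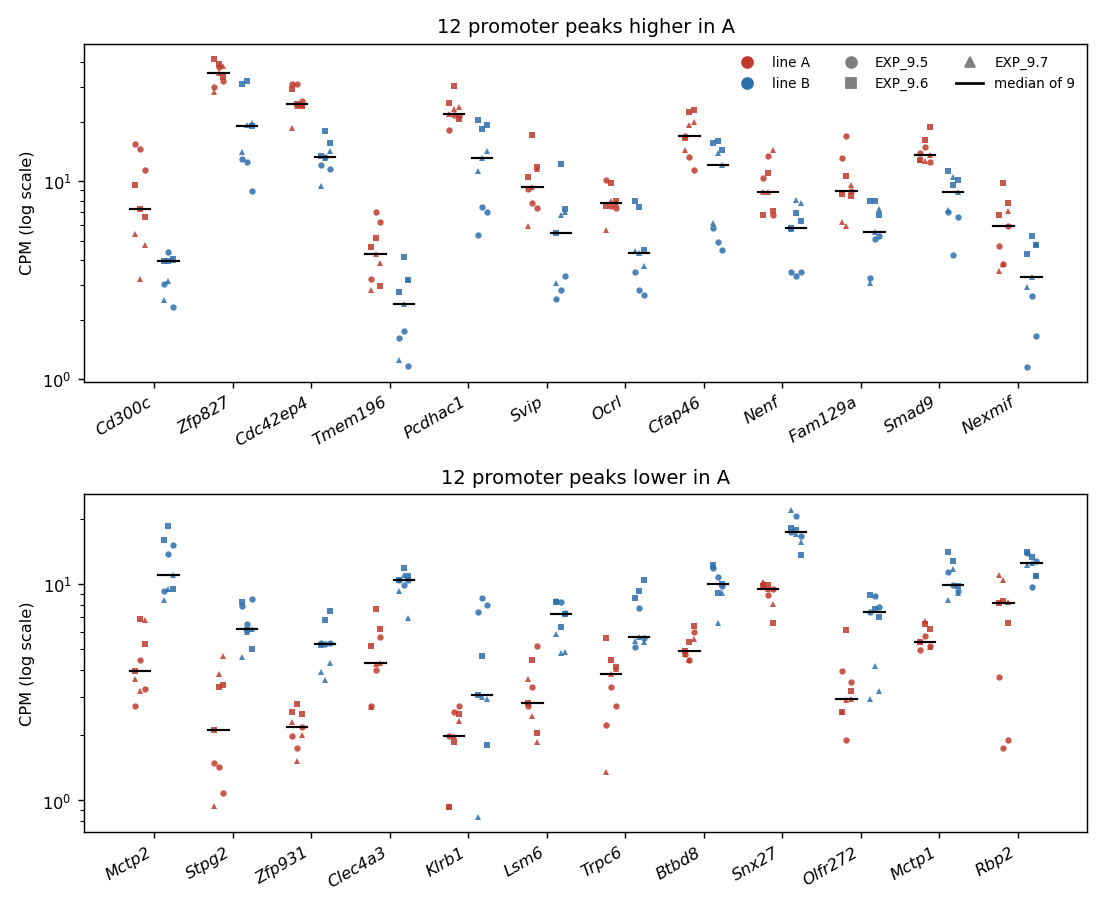
CPM (vertical axis, log scale) of the 12 protein-coding promoter peaks with the largest log2 fold change in either direction, with 1 point per library, line A in red left of line B in blue, symbols for the experiments and a bar at the median of 9 libraries. Cdc42ep4 (A from 18.5, B up to 17.9 CPM) and Snx27 (A up to 10.2, B from 13.6 CPM) are among the peaks at which no library of A overlaps one of B.

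The largest differences lay outside promoters. The peak that was lowest in A, together with one in Mctp2, was intergenic at chr11:28934428-28935288, 81654 bases from the TSS of Efemp1, an extracellular matrix fibulin. Line A had 1.91, 3.93 and 5.70 CPM there and line B 8.58, 13.4 and 22.1 CPM. No library overlapped, and the log2 fold change was −2.0 (SE 0.18, edgeR adjusted p = 1.25e-07). An intronic peak at chr17:90842691-90844150 in the noncoding gene 4930480K15Rik had 1.59, 2.94 and 5.48 CPM in A against 6.85, 9.51 and 15.6 CPM in B (log2 fold change −1.56), again without overlap. A peak whose nearest TSS is that of Sertad4 was also lower in A (log2 fold change −1.61), at 0.497, 1.63 and 2.97 CPM in A against 2.41, 4.19 and 9.06 CPM in B, where the lines overlapped. In the other direction, a peak at chr12:111794070-111795571, 19021 bases from the TSS of the homologous recombination gene Xrcc3, had the highest log2 fold change of all (1.48, SE 0.16, edgeR adjusted p = 1.16e-06). It had 6.85, 9.82 and 12.3 CPM in A against 1.82, 3.15 and 7.24 CPM in B, and only the lowest library of A lay under the highest of B. Peaks nearest to the noncoding gene Gm12720 (1.39) and in Svil, which encodes the actin-binding supervillin (1.31), followed. The 4930480K15Rik, Sertad4, Xrcc3 and Gm12720 peaks had a broad peak in at most 1 library of the lower line. They thus entered the test only through the line where they were higher.

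Broad peaks present in 1 line and absent from the other were rare. Of 87697 consensus peaks with a broad peak in any of the 18 libraries, 22049 had one in all 18. Beside the Nexmif promoter, the opposite pattern, all 9 libraries of B and none of A, occurred at 2 peaks. One was an intronic peak of Mctp2 and the other lay nearest to the noncoding gene Gm43251 on chromosome 5 (log2 fold change −1.39). At a looser count, 87 peaks were present in 7 or more libraries of A and 2 or fewer of B, and 91 were present in 7 or more of B and 2 or fewer of A. Of the called peaks, 44 of the 184 higher and 36 of the 243 lower had a broad peak in all 18 libraries, against 56.8% of all tested peaks.

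Some called peaks stood side by side. There were 12 runs of 3 or more called peaks of the same direction with gaps of at most 100 kb, 8 higher and 4 lower in A, which held 52 of the 427 called peaks (12.2%) and spanned 23.6 to 172 kb. Of the 65 peaks tested within these runs, the 52 called ones shared the sign of their run by definition. The uncalled ones also had that sign, some of them near no difference, such as a peak at −0.04 in the run of Rasgrp1 and Gm13982. The runs were defined after the calls were seen and carry no test of their own. The Mctp2 run, lower in A, comprised all 4 tested peaks of a stretch of 55.4 kb, with log2 fold changes of −1.41 to −2.0. Its peak with the highest CPM, at chr7:72278349-72281627 in an intron, had 3.35, 7.07 and 9.02 CPM in A against 13.9, 18.4 and 22.5 CPM in B (log2 fold change −1.47). The peak 7015 bases from the TSS had 0.543, 1.27 and 2.10 CPM in A and 3.40, 5.64 and 7.47 CPM in B. It had a broad peak in 0 libraries of A and 8 of B, so it entered the test only through line B. At all 4 peaks the 2 lines were separated without overlap.

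The Cdc42ep4 run, higher in A, likewise comprised all 4 tested peaks of its stretch, from the promoter to a peak 50925 bases away, at log2 fold changes of 0.79 to 1.0. Only its promoter peak separated the lines without overlap. The longest run by number lay on chromosome 7 over Stk32c, a serine/threonine kinase gene, Pwwp2b, which encodes a PWWP-domain chromatin protein, and Gm32486 up to Inpp5a, an inositol polyphosphate 5-phosphatase. There 8 of 10 tested peaks were higher in A (0.60 to 1.09), and the other 2 had log2 fold changes of 0.57 and 0.48. The intronic Stk32c peak at the top of this run had 7.72, 11.9 and 13 CPM in A against 2.09, 5.59 and 6.96 CPM in B, without overlap. On chromosome 11, 7 of 9 tested peaks between Olfr412 and Rap1gap2, a GTPase-activating protein of Rap1, were higher in A (0.64 to 1.04). One of them, at chr11:74521661-74524499, had 34.2, 44.7 and 55.6 CPM in A and 16.1, 26.0 and 26.8 CPM in B and separated all libraries. Runs lower in A also lay over Sgip1, an endocytic adaptor (4 of 5 tested peaks), around the fatty acid-binding protein genes Fabp4 and Fabp12 (3 of 3), and around Rasgrp1, an activator of Ras in lymphocytes, and Gm13982 (3 of 8). The remaining runs higher in A were near Mab21l3 (5 of 5), Pitpnb (5 of 8), Gcnt1 (3 of 3), Sirpa and Pdyn (3 of 3), and Zfp697 and Gm4450 (3 of 3).

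**Figure D3:**
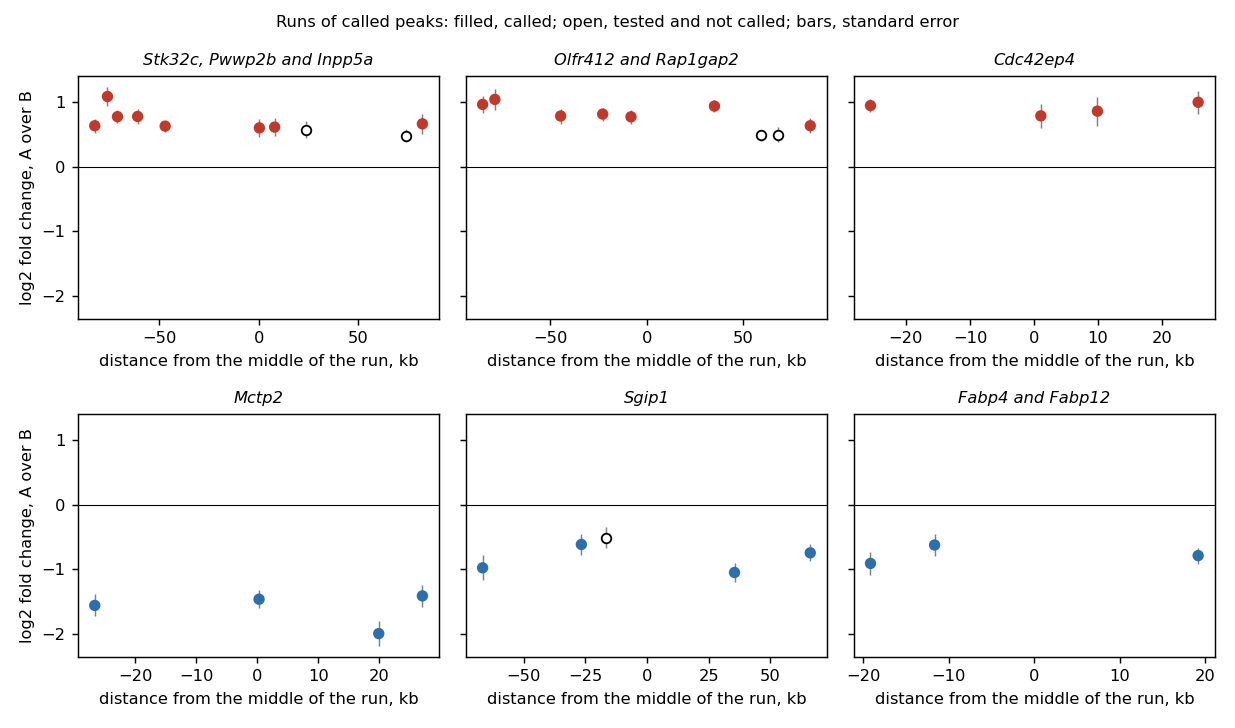
Log2 fold change of line A over line B (vertical axis) of tested peaks in 6 of the 12 runs against the distance of the peak from the middle of the run in kb (horizontal axis). Filled points are called, open points are tested and not called, and bars are standard errors. All 4 Mctp2 peaks lie between −1.41 and −2.0 and all 4 Cdc42ep4 peaks between 0.79 and 1.0.

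Of 28 gene lists, 3 had a called promoter peak. With 1 promoter peak per gene, 74 of 13004 genes were called (0.569%), 47 higher and 27 lower in A, and the median log2 fold change was 0.02. In the list of B-cell identity and pre-B-cell receptor genes 0 of 34 tested promoters were called (median log2 fold change 0.00), and likewise 0 of 25 in the BCR-ABL and STAT5 list (0.00), 0 of 34 tumour suppressor and leukaemia genes (0.02), 0 of 27 cell cycle genes (0.03), 0 of 19 apoptosis genes (0.02) and 0 of 20 MHC class I genes (0.03). For Cdkn2a, the tumour suppressor locus often lost in BCR-ABL leukaemia, the promoter nearest to the TSS had 25.1, 33.8 and 37.4 CPM in A against 35.1, 38.9 and 41.2 CPM in B. Its log2 fold change of −0.25 (edgeR adjusted p = 0.0390) was below the fold threshold. B2m, the invariant chain of MHC class I, had 70.0, 75.4 and 83.4 CPM in A and 63.3, 75.8 and 82.9 CPM in B, with a log2 fold change of 0.00. Socs2, a feedback inhibitor and target of STAT5, had 170, 177 and 191 CPM in A and 174, 177 and 195 CPM in B, again at 0.00. Neither of these 2 promoters separated the lines.

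Peaks other than the promoter peak nearest to the TSS added 6 list genes. Of all tested peaks nearest to a list's genes, 3 of 154 were called in the B-cell identity list (1.95%) and 1 of 97 in the BCR-ABL and STAT5 list (1.03%). The apoptosis list had 1 of 61 (1.64%) and the T-cell list 1 of 32 (3.1%), against 1.10% of all tested peaks. These called peaks are too few to compare the shares. Such a peak was lower in A for Blk, a Src-family kinase of B cells (−0.62), Ptprc, which encodes CD45 (−0.63), and Irf8. A peak 29088 bases from Pim3, a kinase gene of a family induced by STAT5, had 6.85, 15.8 and 16.7 CPM in A against 19.9, 21.7 and 28.7 CPM in B (log2 fold change −0.82, edgeR adjusted p = 4.06e-05). A peak 84375 bases from Bcl2l11, which encodes the pro-apoptotic protein BIM, had 9.82, 11.7 and 14.4 CPM in A and 6.04, 7.14 and 9.73 CPM in B (0.68, edgeR adjusted p = 0.000261). Both of these separated the lines without overlap. The last of the 6 was a peak near Themis, a T-cell gene (−0.68).

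Markers of other cell types had no called promoter peak nearest to a TSS, and those of NK and T cells did not all stand at 0. Of 28 NK cell markers 6 had a tested promoter peak, and the receptor gene Ncr1 and the granule genes Gzma, Gzmb and Prf1 had none. The summed promoter signal of these 6 was 61.6, 66.1 and 76.4 CPM in A against 51.1, 58.9 and 71.5 CPM in B, with a median log2 fold change of 0.25. Tbx21, the T-box factor T-bet of NK and T cells, had 12.6, 15.8 and 20.9 CPM in A and 10.7, 11.6 and 15.1 CPM in B, below the fold threshold at 0.41 (edgeR adjusted p = 0.00322). The 6 NK marker promoters ran from −0.12 to 0.41, so Tbx21 was at their upper end. Of 18 T-cell markers 7 had a tested promoter peak, none of them a CD3 or CD8 gene, with a summed 162, 180 and 217 CPM in A against 162, 173 and 180 CPM in B and a median log2 fold change of 0.07. The log2 fold changes of these 7 ran from 0.00 to 0.51. For 12 of 22 myeloid markers the sums were 176, 190 and 207 CPM in A and 161, 173 and 192 CPM in B (median 0.09). The medians of the erythroid, stem cell and mature B-cell lists were 0.01, 0.02 and 0.00. The sums of A and B overlapped in each of these lists. Their part in the differences described above was not tested.

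**Figure D4:**
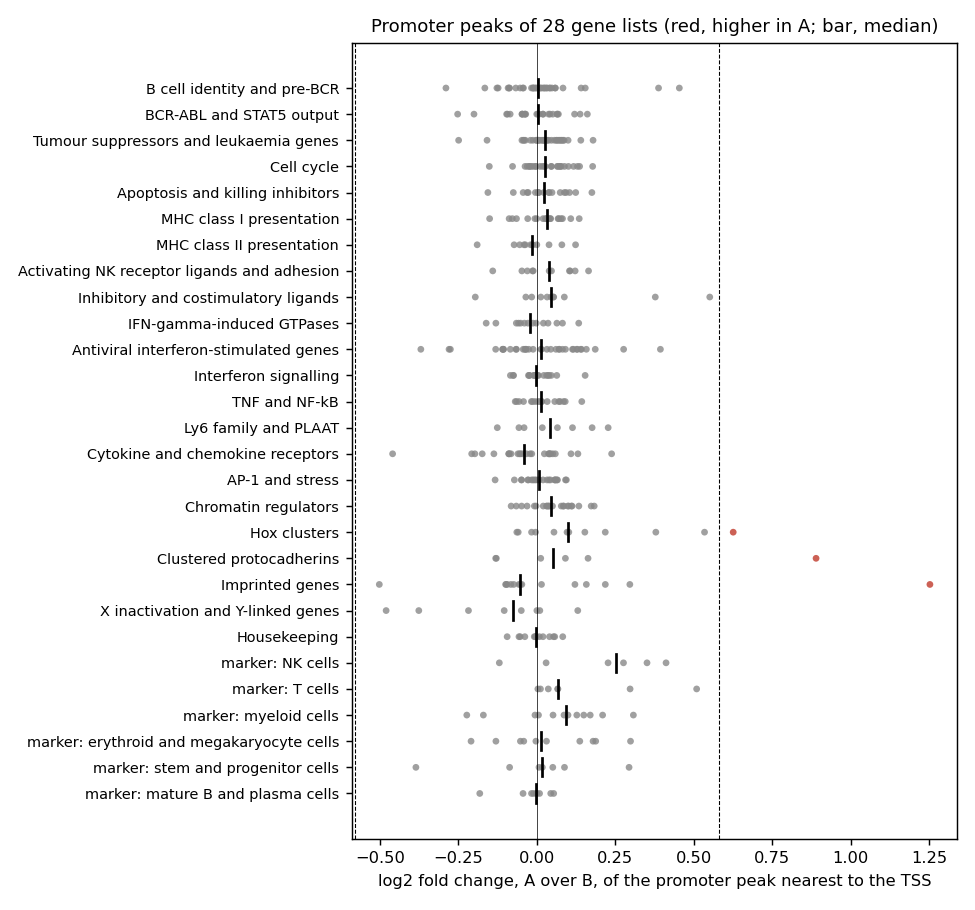
Log2 fold change of line A over line B (horizontal axis) of the tested promoter peak nearest to the TSS of each gene in 28 lists (vertical axis), with 1 point per gene, a bar at the list median and dashed lines at the threshold of 0.58. Red points are the 3 called promoters, Hoxb7 (0.63), Pcdhac1 (0.89) and Nespas (1.25).

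The imprinted genes held the most distinct promoter of any list. Nespas is transcribed antisense within the imprinted Gnas locus, from a region that is methylated on 1 parental allele. Its promoter peak had 19.4, 20.4 and 24.3 CPM in A against 4.32, 9.79 and 17.1 CPM in B, so that A varied little between libraries while B spread widely. The lines did not overlap (log2 fold change 1.25, SE 0.13, edgeR adjusted p = 6.30e-07). The difference was present in each experiment, at log2 ratios of 2.02, 0.80 and 1.03 in EXP_9.5, EXP_9.6 and EXP_9.7. The promoter of Gnas itself, which encodes the stimulatory G protein alpha subunit, had 75.5, 113 and 133 CPM in A and 80.8, 119 and 145 CPM in B (−0.06, edgeR adjusted p = 0.879). Airn, the antisense transcript of the imprinted Igf2r locus, had 13.1, 16.5 and 18.6 CPM in A against 20.5, 23.3 and 25.2 CPM in B. This also separated all libraries, although its log2 fold change of −0.50 (edgeR adjusted p = 0.000249) was below the fold threshold. Of the 15 imprinted genes with a tested promoter peak, 1 was called and the median log2 fold change was −0.05. In the Hox clusters 1 of 12 tested promoters was called, that of Hoxb7 (0.63, edgeR adjusted p = 0.000947), with 15.7, 20.6 and 25.7 CPM in A and 9.69, 13.2 and 17.1 CPM in B. Its neighbour Hoxb6 had a log2 fold change of 0.53, below the fold threshold.

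The antigen receptor loci, which differ between B-cell clones by their rearrangements, held 2 called peaks. The Igh locus had 1 called peak of 135 tested (0.741%, against 1.10% of all tested peaks), higher in A (0.84) and nearest to Gm30948, and a median log2 fold change of −0.05. The Igk locus had 0 called of 122 (median −0.09) and the Igl locus 0 of 7 (median −0.07). The T-cell receptor alpha and delta locus had 1 of 12, nearest to Gm43650 and lower in A (−0.65, edgeR adjusted p = 0.0494). Among gene families named by symbol, 5 of 82 tested peaks nearest to olfactory receptor genes were higher and 4 lower in A (11%), against 1.31% of 533 peaks nearest to Zfp genes. Of the 5 olfactory receptor peaks higher in A, 4 were the Olfr412 peaks of the chromosome 11 run, so they are neighbours and not separate loci. They lay 37996 to 100371 bases from the Olfr412 TSS. The called peaks of both directions were nearest to Olfr782, Olfr412, Olfr1258, Olfr272 and Olfr552 only, so the share does not describe the family.

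Called peaks differed from the tested peaks in position and sequence. Promoters made up 28.3% of the higher and 14% of the lower peaks, against 36% of all tested peaks. The median distance to the nearest TSS was 19070 bases in the higher and 24826 bases in the lower peaks, against 8676 bases over all tested peaks, and 13% and 13.6% lay over 100 kb from a TSS, against 4.62%. The lower peaks were poorer in G and C, with a median GC content of 45.7% in the 300 bases at the peak centre, against 51.7% in the higher and 51.0% in all tested peaks. They held a median of 3 CG dinucleotides, against 5 in the higher peaks and in all tested peaks. This contrast was wider at promoters, with a median of 12 CG dinucleotides in the higher and 4.5 in the lower promoters, against 17 over all tested promoters.

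Of 23 short motifs searched on either strand of the same 300 bases, 4 are described, chosen after their shares were seen. The AP-1 motif TGANTCA was found in 13% of the higher and 14% of the lower peaks, against 8.07% of all tested peaks. The STAT motif TTCNNNGAA was found in 10.3% of the higher and 16.0% of the lower peaks, against 8.61%. The SP/KLF motif GGGCGG, which overlaps with CG content, was found in 15.2% of the higher and 5.76% of the lower peaks, against 21.4%. The EBF motif CCCNNGGGA was found in 12% of the higher and 6.58% of the lower peaks, against 9.0%. Promoters are unequally represented in these groups. Among distal peaks alone the shares in higher, lower and all tested peaks were 15.2%, 15.3% and 9.87% for AP-1, 12.9%, 16.7% and 9.81% for STAT, 5.30%, 3.83% and 7.78% for SP/KLF, and 10.6%, 7.18% and 8.57% for EBF. A match describes the letters of the window and not binding of a factor, and the shares were not tested.

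Counts were summed over consensus peaks in 1-Mb bins, and 18 of 2349 bins were called (0.766%), 8 higher and 10 lower in A, where a call required an adjusted p of at most 0.05 and a log2 fold change of at least 0.3 in size. No 2 called bins were adjacent. The lower bins numbered 22 with the replicate number as a block, 23 on counts summed per line and experiment, and 17 without replicate 3 of line A in EXP_9.7, and the higher bins numbered 4 or 5 without any 1 library of EXP_9.5. The lowest bin was that of Mctp2 on chromosome 7 (−1.11), with 5 called peaks, and the bin of the same chromosome that holds the Stk32c run was higher in A (0.41) with 10 called peaks. Whole chromosomes took nearly the same share of counts in both lines. The largest differences were log2 ratios of −0.06 for chromosome Y and −0.05 for chromosome 18, where the share was 2.54% ± 0.150 in A and 2.62% ± 0.217 in B (SD, n = 9 each). An exact two-sided permutation test within experiments gave p = 0.0325 for chromosome 18 and an adjusted p of 0.636 over 21 chromosomes, and no chromosome passed. With CPM scaled by TMM factors chromosome 18 passed, at a log2 ratio of −0.05 (exact permutation p = 0.0015, adjusted p = 0.0315).

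The experiments did not weigh equally. The median log2 ratio of A over B in the higher peaks was 1.10 in EXP_9.5, 0.53 in EXP_9.6 and 0.57 in EXP_9.7, and in the lower peaks it was −0.90, −0.62 and −0.66. The sign was the same in all 3 experiments in 183 of the 184 higher and 241 of the 243 lower peaks, against 35% of all tested peaks, although the calls used the same libraries. Without the first replicates of EXP_9.7, its medians were 0.55 and −0.61, and the sign was the same in 180 higher and 235 lower peaks, against 33.5% of all tested peaks. Tested by itself with edgeR, EXP_9.5 gave 605 higher and 448 lower peaks, EXP_9.6 gave 12 and 22, and EXP_9.7 gave 0. In EXP_9.7 edgeR gave 1159 of 38801 peaks at an unadjusted p of 0.05 or less, which is below a share of 0.05, and DESeq2 called 5. The spread between libraries followed the reverse order, with a common coefficient of biological variation of 0.0580 in EXP_9.5, 0.0748 in EXP_9.6 and 0.157 in EXP_9.7. Without the first replicates of EXP_9.7 it was 0.0863 there, and 16 peaks were higher and 16 lower in A. In EXP_9.7 the deviations of same-numbered libraries correlated at r = 0.73, 0.14 and 0.49 over peaks. Replicate 2 of A with replicate 3 of B had 0.14 and replicate 3 of A with replicate 2 of B 0.34, so replicates 2 did not stand out as a pair. With the replicate number as a block this experiment by itself gave 96 higher and 200 lower peaks, at a coefficient of 0.0653. This fit was chosen after seeing the data.

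The line difference itself differed between the experiments at 9 peaks (0.0232%) in a test of the interaction of line and experiment, where 1210 peaks had an unadjusted p of 0.05 or less. These 1210 are below a share of 0.05 of the 38801 tested peaks. At all 9 the difference was widest in EXP_9.5. Without the first replicates of EXP_9.7 the interaction passed at 35 peaks, with all 9 among them. A peak at chr11:113062690-113065288, 109088 bases from the noncoding gene 2610035D17Rik, had 54.5 ± 4.65 CPM in A against 12.4 ± 2.70 CPM in B in EXP_9.5 (SD, n = 3 each). The same peak had 47.4 ± 2.60 CPM in A and 32.0 ± 3.79 CPM in B in EXP_9.6, and 50.6 ± 8.65 CPM in A and 29.3 ± 3.20 CPM in B in EXP_9.7. The mean of line A lay close together in the 3 experiments, and that of line B was lowest in EXP_9.5. At Rbp2 the lines took the opposite parts, with 2.46 ± 1.10, 7.72 ± 0.958 and 9.85 ± 1.46 CPM in A and 12.1 ± 2.2, 12.7 ± 1.66 and 11.9 ± 0.766 CPM in B in EXP_9.5, EXP_9.6 and EXP_9.7. The distal Cdc42ep4 peak 26361 bases from the TSS, part of the run described above, was among the 9, with 13.5 ± 2.26 CPM in A against 3.16 ± 0.332 CPM in B in EXP_9.5 but 9.90 ± 0.703 CPM against 8.82 ± 0.908 CPM in EXP_9.6.

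Other libraries of the same lines, harvested after culture with NK cells, gave a second look at the called peaks. They share no library with the first comparison but come from the same barcoded lines and the same experiments, so they are not an independent repeat. Time point 1 was the day on which B-ALL alone was harvested in the same experiment. Time point 2 was later, so NK cells and time in culture cannot be told apart there. With NK cells at time point 1, 567 of the same 38801 peaks differed between A and B (1.46%), 264 higher and 303 lower in A. Of the 184 peaks higher in A alone, 184 kept their sign and 111 were called again there, and of the 243 lower peaks 233 kept their sign and 127 were called again, where 65.7% of all tested peaks had the same sign in both. At time point 2, 1633 peaks differed (4.21%), 761 higher and 872 lower in A, and 88 of the 184 higher and 116 of the 243 lower peaks were called again in the same direction. The sign was kept there in 163 higher and 222 lower peaks, against 62.0% of all tested peaks. Both time points called 71 higher and 91 lower peaks again. The interaction of line and arm passed at 0 peaks at time point 1 with edgeR (2317 had an unadjusted p of 0.05 or less, and no other tool was run). At time point 2 it passed at 1372 peaks (3.54%), 92 of them among the 427. The 427 were chosen for their difference alone, which is part of this contrast, so nothing is read from the 92.

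**Figure D5:**
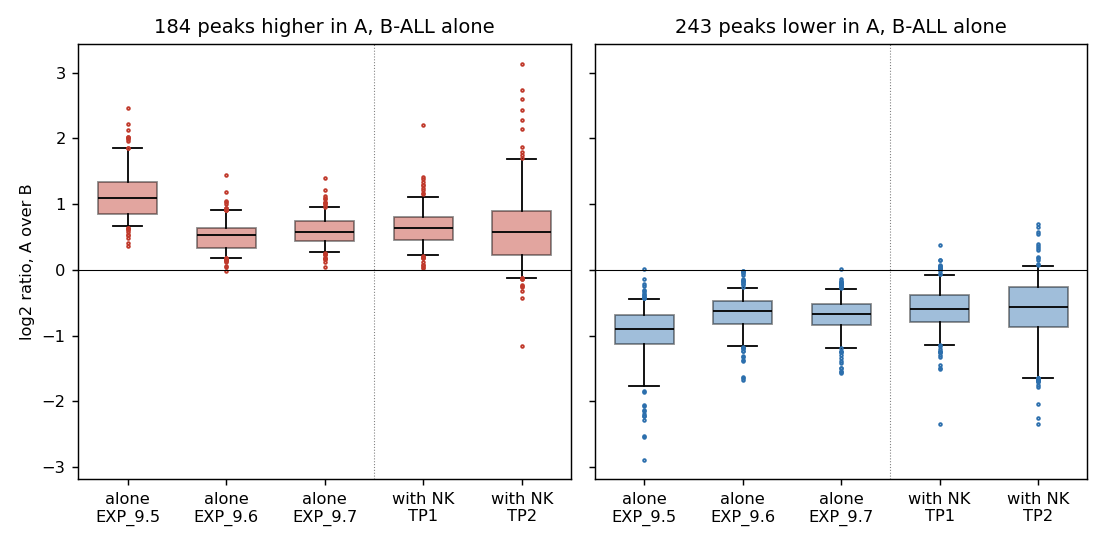
Log2 ratio of line A over line B (vertical axis) of the 184 peaks higher in A (left) and the 243 lower in A (right), in B-ALL alone by experiment and in libraries with NK cells at time points 1 and 2 (horizontal axis). Boxes show the median and quartiles, whiskers the 5th and 95th percentiles, and the medians of the higher peaks are 1.10, 0.53, 0.57, 0.64 and 0.57 from left to right.

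Single peaks behaved differently in these libraries. The Efemp1 peak kept its difference, with log2 fold changes of −2.0 alone, −2.34 at time point 1 and −2.34 at time point 2 with NK cells. The Xrcc3 peak widened, at 1.48 alone, 2.21 at time point 1 and 3.13 at time point 2 (line by arm interaction at time point 2, edgeR adjusted p = 3.57e-05). The Cdc42ep4 promoter differed by 0.95 alone and 0.70 at time point 1, and at time point 2 its log2 fold change was −0.09 (interaction adjusted p = 0.000399). The Mctp2 promoter likewise narrowed, at −1.41 alone, −0.88 at time point 1 and −0.28 at time point 2 (interaction adjusted p = 0.00120). Nespas kept its difference at 1.25, 1.29 and 0.96. These peaks were chosen for a large difference alone, so a narrower difference with NK cells is partly built in.

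The other pair of sister lines, C and D, came from another parental line and gives a scale for the number of differences. Between C and D alone, in the same 3 experiments, 527 of 45362 tested peaks differed (1.16%). Of the 427 peaks called between A and B, 337 were tested there, and 37 were called, 18 in the same and 19 in the opposite direction. Nespas had a log2 fold change of 1.25 for A over B and of −1.94 for C over D, and the Mctp2 promoter had −1.41 and 0.78. The Pcdhac1 promoter had the same sign in both pairs, at 0.89 and 1.18. The labels A to D fix no order between the pairs, so a shared or opposite sign carries no direction of its own. The difference of the differences, A over B against C over D, passed in 1 fit at 1133 of 47844 peaks (2.37%). By the same rule, 105 of the 184 higher and 143 of the 243 lower peaks passed, against 888 of 38801 peaks tested between A and B. The peaks were chosen for A over B, which is part of this contrast, so nothing is read from these counts.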

How the data were processed

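ATAC-seq was read for 18 libraries of lines A and B grown alone. The authors aligned reads with STAR (version not given in the sources used here) to GRCm38, used Picard 2.27.4 and called broad peaks per library with MACS2 2.2.7.1. They merged these into 256400 consensus peaks, and they deposited raw counts of read pairs per consensus peak from featureCounts 2.0.1 (unstranded, minimum overlap fraction 0.2, pairs counted for every peak they overlap). A blacklist of GRCh38 is named although the reads are from mouse. The broad-peak files that the authors deposited also hold the −log10 of a q-value, of which only presence of a peak was used.

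Coordinates are printed as the deposited table gives them. Peaks called in every replicate of at least 1 group were kept, and 38801 were tested after edgeR's filter. The quasi-likelihood test of edgeR 4.0.16 (R 4.3.3) was fitted with TMM normalization, experiment as a block and line, with Benjamini-Hochberg adjustment. CPM are TMM-scaled. Values of more than 5 libraries are given as lowest, median and highest. The nearest TSS came from GENCODE M21. DESeq2 1.42.0 was an alternative. The scripts were tested on simulated data. The named peaks were the 12 called promoters of protein-coding genes with the largest log2 fold change in either direction, 1 per gene, and the 5 called peaks with the largest change in either direction, all with the same sign in each experiment. Members and gene lists were chosen with earlier results of these data known. The labels number replicates but tie them to no culture, so p-values measure the spread between these libraries, which may be technical. Near-identical genes may share reads.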

Additional observations from a re-analysis of the deposited data

Results flagged for a closer look

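The difference between the lines itself differed between the experiments at 9 peaks in edgeR's test of the interaction of line and experiment, and at 35 without the first libraries of EXP_9.7, a choice made after seeing the data. The adjusted p was 0.00586 for 2610035D17Rik at 113062690 on chromosome 11, 0.0149 for the neighbouring 2610035D17Rik peak at 113060046, 0.00708 for the distal Cdc42ep4 peak and 0.00708 for the peak nearest to Gm43135. It was 0.0149 for Gm45218, 0.0195 for Rbp2, 0.0296 for Gm7538, 0.0330 for Auts2 and 0.0452 for Fgf13. Of these, Gm45218 and Fgf13 were not called over the 3 experiments together. Auts2 had log2 ratios of 1.52, 0.04 and 0.35 in EXP_9.5, EXP_9.6 and EXP_9.7, and Gm45218 had −1.30, 0.00 and 0.19.

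The difference between the lines also differed between libraries with NK cells at time point 2 and libraries of B-ALL alone, at 1372 peaks by edgeR's interaction of line and arm. Among the named peaks the adjusted p was 6.15e-09 for Rbp2, 1.27e-07 for Btbd8, 3.57e-05 for the Xrcc3 peak, 0.000183 for Svip, 0.000399 for Cdc42ep4 and 0.000989 for Snx27. It was 0.000246, 0.000568 and 0.00120 for the Mctp2 peaks at 72252019, 72298972 and 72306085. It was 0.00142 for Zfp931, 0.00730 for Nenf, 0.00937 for Gm12720, 0.0139 for Clec4a3, 0.0164 for 4930480K15Rik and 0.0169 for Cd300c. Rbp2 had log2 fold changes of 0.54 with NK cells at time point 2 and −0.88 alone, and Btbd8 had 0.40 and −0.97. Svip had 2.43 and 0.85, and Clec4a3 had −2.03 and −1.13, so that these differences were wider with NK cells at time point 2. With NK cells at time point 1 Svip had 1.11 and Clec4a3 −0.99. Time point 2 was a later harvest than that of B-ALL alone, so NK cells and time in culture cannot be told apart there. The named peaks were chosen for a large difference alone, which is part of this contrast. A narrower difference at time point 2 is therefore partly built in.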

How the results depend on the processing

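No named peak changed sign under any alternative. The named peaks were chosen for the same sign in each experiment and the alternatives reuse these libraries, so nothing is read from this. Of all 427 called peaks 1 was reversed in EXP_9.6 alone. Of 33 named peaks, the call was lost in 33 in EXP_9.7 alone (12 with the replicate block), 23 with glmTreat, 22 in EXP_9.6 alone, 16 without EXP_9.5, 7 without the experiment block, 3 without EXP_9.6 and 0 on leaving out any 1 library. Log2 fold changes ran from 0.51 to 2.10 for Cd300c and from −2.33 to −0.25 for Rbp2. With 184 higher and 243 lower peaks in A, and 52 and 34 promoters, the counts moved by over 1.5 times as follows (higher and lower peaks, then promoters): 43 and 36, 16 and 3 among peaks called in all 18 libraries; 112 and 152, 28 and 22 without the experiment block; 605 and 448, 180 and 58 in EXP_9.5; 12 and 22, 3 and 5 in EXP_9.6; 0 and 0, 0 and 0 in EXP_9.7, where edgeR gave 1159 peaks at an unadjusted p of 0.05 or less and DESeq2 called 5; 601 and 697, 200 and 93 without the fold threshold; 4 and 16, 1 and 2 with glmTreat. Chosen after seeing the data, leaving out EXP_9.5 gave 28 and 54, 6 and 13, and leaving out EXP_9.7 gave 298 higher peaks, while EXP_9.7 with the replicate block gave 96 higher and 200 lower. Leaving out 1 library gave 145 to 203 higher and 202 to 277 lower peaks, 41 to 62 and 28 to 38 promoters, and 4 to 10 and 8 to 17 bins. Other tools moved them less, with 184 and 245 by DESeq2. The 1159 peaks of EXP_9.7 at an unadjusted p of 0.05 or less are below a share of 0.05 of those tested.

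Called 1-Mb bins (8 higher, 10 lower) numbered 16 and 19 at 500 kb, 2 and 4 at 2 Mb, 0 and 1 from peaks called in none of the libraries (111 bins at an unadjusted p of 0.05 or less), 0 and 0 from peaks called in all 18 (85), 3 and 4 without the experiment block, 24 and 19 in EXP_9.5, 0 and 1 in EXP_9.6 (179), 0 and 0 in EXP_9.7 (12), 23 lower with summed counts, and 19 lower without the first EXP_9.7 libraries, a choice made after seeing the data. With TMM-scaled CPM 1 chromosome (18) passed, against 0. The interaction of EXP_9.7 against the other experiments gave 0 peaks (1155 at an unadjusted p of 0.05 or less), against 9, and the test without the first EXP_9.7 libraries gave 35. The 1155 peaks and the 111 and 12 bins are below a share of 0.05 of those tested, and the 85 and 179 bins are above it. With only edgeR's expression filter, NK time point 1 gave 645 and 857 peaks and time point 2 gave 2178 and 2211. Counting every peak nearest to a list gene gave 9 list genes, against 3. With the replicate number as a block, 198 higher and 251 lower peaks, 56 and 35 promoters and 10 and 22 bins were called, the interaction gave 10 peaks, and 414 of the 427 calls were kept. Same-numbered libraries correlated at −0.08 to 0.00 in EXP_9.5, −0.16 to 0.09 in EXP_9.6 and 0.14 to 0.73 in EXP_9.7, so the numbers were not taken as pairs over the 3 experiments. Depth limits the many peaks near 6 CPM, and copy number was not measured. The cause of these changes was not tested.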

Other observations

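A pair of neighbouring Igh peaks nearest to Adam6b, chosen after their values were seen, were lower in A with NK cells at time point 2 and had no call in B-ALL alone. At chr12:113466116-113467849 the mean was 1.54 CPM in A and 7.44 CPM in B with NK cells at time point 2, 7.21 CPM in A and 5.98 CPM in B at time point 1, and 10.6 CPM in A and 7.74 CPM in B alone. The log2 fold change was −2.37 at time point 2 (edgeR adjusted p = 2.99e-11) and 0.44 alone (edgeR adjusted p = 0.00663, below the fold threshold), and the interaction of line and arm had an adjusted p of 1.11e-17. At chr12:113470615-113473704 the means were 2.41 CPM in A and 11.5 CPM in B at time point 2, and 15.6 CPM in A and 13 CPM in B alone (interaction adjusted p = 8.82e-17).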
